A study of Mus musculus with 12 samples.

Results

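The genes described here build and regulate the inflammasome, the cytosolic machine that starts pyroptosis. They were taken by name, as the rows for Nlrp3, Mefv, Nlrp1b, Nlrc4, Naip2, Naip5, Pycard, Casp1, Casp4 and Txnip in the table of normalized counts, and all 10 were present among its 43278 gene symbols. RNA was sequenced from thioglycolate-elicited peritoneal macrophages (PMφs) of WT C57BL/6J mice. The cells were with or without oxidized low-density lipoprotein (oxLDL) and with or without lipopolysaccharide (LPS). The study used the oxLDL and control transcriptomes to look for a possible source of reactive oxygen species. There were 12 libraries in 4 groups of 3. Control PMφs received neither agent, the oxLDL group received 100 µg/ml human medium oxidized LDL for 24 h, the LPS group received 10 ng/ml ultrapure LPS, and the oxLDL+LPS group received oxLDL and then LPS at these doses. All groups shared an intraperitoneal injection of 1 ml of 4% thioglycolate, harvest after 4 days and selection by adherence for 18 h. The labels do not say for how long LPS was given. By the study's methods, the mice were 8 to 12 wk old and each experiment pooled cells of male and female littermates and split the pool among the groups, so libraries with the same replicate number can be compared within a number.

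An inflammasome forms when a sensor recruits the adaptor ASC, the product of Pycard, which in turn gathers caspase-1. Caspase-1 matures interleukin-1β and interleukin-18 and cleaves gasdermin D, whose fragment perforates the plasma membrane, and caspase-11, the product of mouse Casp4, cleaves gasdermin D after binding LPS in the cytosol. In macrophages, signaling from Toll-like receptor 4 through NF-κB is known to prime the pathway by raising transcripts such as Nlrp3 and Il1b, whereas assembly and cleavage need a further signal and leave no direct trace in RNA counts.

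Sequences upstream of 4 members are shown because 3 of these genes had the steepest rises with LPS among the members. The fourth, Naip5, holds a κB motif but had no call before rescaling of the libraries. They are the 250 bases before a RefSeq transcript start on GRCm38.p6, read 5′ to 3′ on the gene's strand, with matches to the NF-κB (κB) consensus in capitals. The windows lie at chr9:5308599-5308848 (plus strand, Casp4), chr11:59541319-59541568 (plus strand, Nlrp3), chr16:3718125-3718374 (minus strand, Mefv) and chr13:100247337-100247586 (minus strand, Naip5).
Casp4: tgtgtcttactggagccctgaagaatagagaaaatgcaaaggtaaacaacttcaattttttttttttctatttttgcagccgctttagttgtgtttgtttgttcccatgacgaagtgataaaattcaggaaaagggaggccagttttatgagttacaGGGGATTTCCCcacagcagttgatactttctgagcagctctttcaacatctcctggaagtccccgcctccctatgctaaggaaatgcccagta
Nlrp3: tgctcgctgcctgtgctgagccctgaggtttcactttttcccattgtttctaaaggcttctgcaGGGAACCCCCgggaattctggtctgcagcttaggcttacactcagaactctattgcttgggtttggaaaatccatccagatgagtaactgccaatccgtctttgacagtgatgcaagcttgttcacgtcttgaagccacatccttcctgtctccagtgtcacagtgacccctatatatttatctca
Mefv: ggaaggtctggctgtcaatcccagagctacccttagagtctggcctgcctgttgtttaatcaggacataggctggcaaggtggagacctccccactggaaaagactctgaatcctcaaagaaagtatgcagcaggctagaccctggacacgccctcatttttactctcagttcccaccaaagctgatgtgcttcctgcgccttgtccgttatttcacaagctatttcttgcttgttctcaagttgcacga
Naip5: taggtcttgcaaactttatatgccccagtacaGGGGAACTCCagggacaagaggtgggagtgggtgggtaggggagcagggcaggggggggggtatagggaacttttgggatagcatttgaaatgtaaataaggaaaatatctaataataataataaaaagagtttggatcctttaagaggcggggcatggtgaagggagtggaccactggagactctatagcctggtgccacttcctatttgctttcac

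RefSeq windows of 300 bases, from 250 before to 50 after a start, were matched for 10 of 10 members. The κB consensus, searched on both strands, was found in 3 members, in Casp4 as 2 overlapping matches from -93 to -83, in one of the 2 windows of Nlrp3 from -186 to -177, and in Naip5 from -218 to -209, and 5.14% of 27025 genes held it. The letters CACGTG were found in Casp1 alone among the members and in 8.09% of all genes. Neither GAAA, 2 bases of any kind and GAAA again, in 3.99% of all genes, nor TTCNNNGAA, in 9.55%, was found in a member's window. Casp4 carried a match and rose with LPS, and Mefv rose without one. Naip5 carried one with no called change before libraries were scaled to the same total. A match is only a string of letters in the window.

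Whole-library values frame these results. The table held counts that the authors had divided by 1 factor per library and rounded, called normalized counts here, which implied 16725738 to 26178673 reads on genes per library. The normalized counts summed to between 17152972 and 17709731 in control libraries, 17440329 and 17444102 in oxLDL libraries, 22590678 and 26384551 in LPS libraries and 22071853 and 23346854 in oxLDL+LPS libraries. Scaling every library to the same total instead lowered the median log2 fold change of all genes from -0.00097 to -0.48 in LPS against control, and from -0.02 to -0.41 in oxLDL+LPS against oxLDL. Changes of named genes by less than 1 on the log2 scale with LPS are therefore given under both scalings. All 8 of 8 macrophage markers reached 10 in each group, with sums of 231967 to 347950 over the 12 libraries. Summed neutrophil markers (10 genes, with Ly6g at 0 in every library) were 83 to 106 in control, 71 to 76 in oxLDL, 83 to 181 in LPS and 135 to 260 in oxLDL+LPS libraries. The higher sums with LPS were mostly S100a8, at 31 to 49 without and 74 to 248 with it, and Camp reached 10 at most. Cxcr2, at 15 to 43 without and 0 to 3 with LPS, and Ltf, at 3 to 25 and 1 to 4, were lower with it. Summed T and NK cell markers (8 genes) were 27 to 51 without LPS and 88 to 245 with it, but this was Lck alone, at 11 to 26 without and 79 to 234 with LPS, while Cd2 was at 9 to 25 without and 3 to 7 with it and Cd3e, Cd3d and Cd3g at 0 to 2 throughout. Summed eosinophil markers (5 genes) were 188 to 387 without and 59 to 125 with LPS, nearly all of it Siglecf, at 180 to 383 and 55 to 124, with Prg2 at 0 in all libraries and Epx at 0 or 1. Over all 12 libraries, sums were 154 to 335 for B cell markers (7 genes), 36 to 120 for mast cell markers (6 genes), 57 to 142 for dendritic cell markers (6 genes) and 3779 to 21665 for mesothelial cell and fibroblast markers (8 genes). The last varied with the replicate number. Col1a1, the largest of them, was at 9735, 6937 and 2054 in control and 7470, 5676 and 2193 in oxLDL libraries 1, 2 and 3. With LPS it was at 12012, 5517 and 1965, and with oxLDL and LPS at 6800, 5833 and 1782. The part of these cells in the results was not tested. In bulk RNA, fewer cells of a type cannot be told apart from less RNA per cell.

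**Figure D1:**
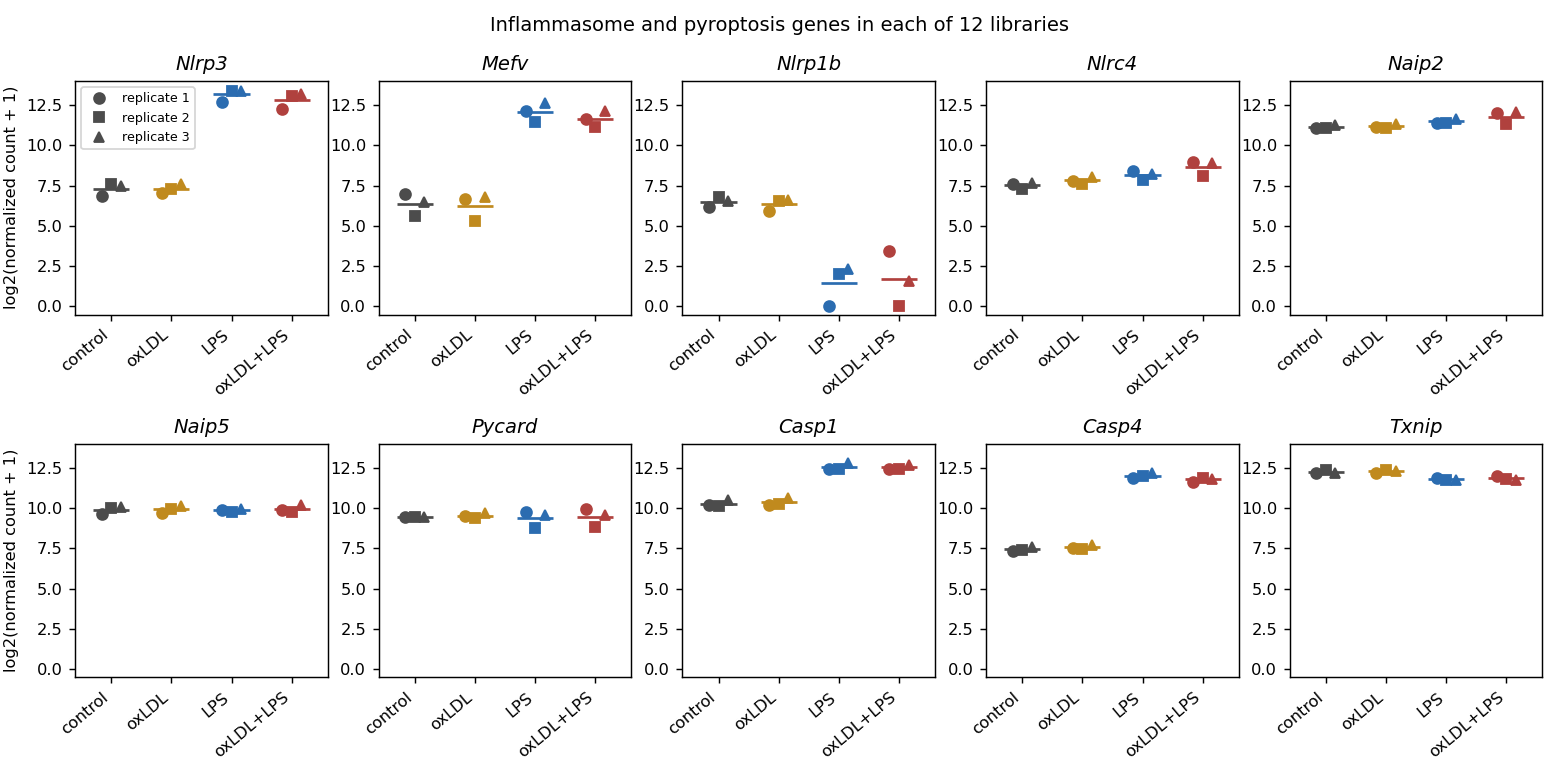
Level of each of the 10 genes in each of the 12 libraries, on a log2(normalized count + 1) axis, with the 4 groups along the horizontal axis, replicate numbers as symbols and the group mean as a line. Nlrp3, Mefv, Casp1 and Casp4 lie far higher in the LPS and oxLDL+LPS libraries, Nlrp1b lies near 0 there, and Naip5 and Pycard overlap in all groups.

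LPS changed the RNA of most of these genes in PMφs without oxLDL. Nlrp3, Mefv, Nlrc4, Naip2, Casp1 and Casp4 rose, Nlrp1b and Txnip fell, and Naip5 and Pycard were not called (limma after adding 1 and taking log2, with a Benjamini-Hochberg adjusted p under 0.1). That is 8 of 10 members (7 of 9 without Nlrp1b, which could pass the filter on low values only if high in control), where 61.7% of the 13023 genes tested were called, 31.4% higher and 30.3% lower, and the members' share is to be read against that. A log2 fold change of at least 2 was reached by 4 of 10 members, Nlrp3, Mefv, Casp4 and Casp1, against 7.17% of genes tested, and by the same 4 in oxLDL-loaded PMφs, against 5.78%. The members' median log2 fold change was 0.50. With the libraries scaled to the same total, 8 members were again called, but 4 higher and 4 lower, and the split over all genes moved from 4093 higher and 3946 lower to 2166 higher and 7224 lower.

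Nlrp3 encodes the sensor of ion flux and membrane damage. It is gene ENSMUSG00000032691, on chromosome 11 from 59541568 to 59566956 of GRCm38 on the plus strand. Its normalized count was 116, 191 and 177 in control libraries 1, 2 and 3 and 6677, 10692 and 10863 in LPS libraries. The lowest LPS library stood far above the highest control library. The log2 fold change was 5.86 (SE 0.24, adjusted p = 1.16e-06 from limma), a 57.9-fold change on this scale with a 95% interval of 39.0 to 85.9, and Nlrp3 ranked 123 from the top of 13023 genes. In oxLDL-loaded PMφs it was 130, 155 and 190 without LPS and 4822, 8735 and 9183 with it. That is a log2 fold change of 5.53 (SE 0.26, adjusted p = 5.04e-06 from limma).

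Mefv, on chromosome 16 from 3707218 to 3718097 on the minus strand, encodes pyrin, the sensor of RhoA inactivation. Its normalized count was 127, 48 and 88 in control libraries and 4484, 2815 and 6318 in LPS libraries, and 101, 39 and 111 in oxLDL libraries against 3144, 2296 and 4499 in oxLDL+LPS libraries. Replicate 2 was the lowest library in each of the 4 groups. The log2 fold change with LPS was 5.71 (SE 0.39, adjusted p = 1.47e-05 from limma) in unloaded and 5.37 (SE 0.42, adjusted p = 5.46e-05) in loaded PMφs. Every LPS-treated library stood far above every library without LPS.

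Nlrp1b, on chromosome 11 from 71153102 to 71230733 on the minus strand, encodes a sensor that is activated by proteolytic loss of its N terminus. Its normalized count was 70, 108 and 94 in control and 0, 3 and 4 in LPS libraries, and 60, 93 and 98 in oxLDL and 10, 0 and 2 in oxLDL+LPS libraries. All LPS-treated libraries were thus close to the floor, and a count of 0 allows up to 3 reads, or 3.22 normalized counts in LPS library 1 and 3.44 in oxLDL+LPS library 2, for counting error alone. The fitted log2 fold changes were -5.06 (SE 0.61, adjusted p = 0.000291 from limma) and -4.69 (SE 0.81, adjusted p = 0.00263), the 9th lowest of 13023 and the 6th lowest of 12900 genes. Their size depends on the pseudocount and was -3.03 and -2.78 with a pseudocount of 10. The gene passed the filter on low values only through the groups without LPS, so it could pass only if high there. Its paralog Nlrp1a, from the list of other sensors, was at 43, 55 and 67 in control and 30, 22 and 13 in LPS libraries. How reads were divided between the paralogs is not stated.

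Among the members, the sensors of bacterial flagellin and secretion systems moved little. Naip1, a Naip paralog from the list of other sensors, fell from 256, 231 and 246 in control to 67, 32 and 27 in LPS libraries. Nlrc4, on chromosome 17 from 74425438 to 74459142 on the minus strand, encodes the partner that NAIP proteins recruit. It was at 195, 159 and 204 in control and 340, 235 and 305 in LPS libraries, so that the groups did not overlap, with a log2 fold change of 0.65 (SE 0.18, adjusted p = 0.0159 from limma). Naip2, on chromosome 13 from 100144063 to 100202092 on the minus strand, encodes a receptor for secretion-system rod protein. It was at 2181, 2159 and 2416 in control and 2726, 2691 and 3251 in LPS libraries, again without overlap (log2 fold change 0.36, SE 0.10, adjusted p = 0.0217). Both calls were lost with the same-total scaling, where Nlrc4 gave 0.16 (adjusted p = 0.468) and Naip2 -0.13 (adjusted p = 0.193), so the direction of Naip2 depends on the scaling.

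In oxLDL-loaded PMφs, Nlrc4 rose from 222, 197 and 264 to 512, 274 and 486 (log2 fold change 0.85, SE 0.25, adjusted p = 0.0267 from limma), and the groups stood apart by a small margin. Naip2 went from 2268, 2136 and 2615 to 4077, 2574 and 4262 (0.61, SE 0.20, adjusted p = 0.0377). For Naip2 the groups overlapped, since oxLDL+LPS library 2 was lower than oxLDL library 3. The Naip2 call was lost without oxLDL replicate 1 or 2 or oxLDL+LPS replicate 1 or 3, where the adjusted p reached 0.118 at most, and the same-total scaling gave 0.22 (adjusted p = 0.383) for Naip2 and 0.46 (adjusted p = 0.162) for Nlrc4.

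Naip5, on chromosome 13 from 100211739 to 100246323 on the minus strand, encodes the flagellin receptor. It was at 804, 1024 and 1082 in control, 836, 1005 and 1128 in oxLDL, 943, 857 and 986 in LPS and 937, 858 and 1196 in oxLDL+LPS libraries. These ranges lay over one another in all 4 groups. Its log2 fold change with LPS was -0.05 (95% interval -0.36 to 0.25, adjusted p = 0.757 from limma) in unloaded and 0.0070 (95% interval -0.37 to 0.38, adjusted p = 0.975) in loaded PMφs. With the same-total scaling these became -0.54 (adjusted p = 0.00689) and -0.38 (adjusted p = 0.0660), both called. The Naip genes are close paralogs in one cluster, and how their shared reads were counted is not stated.

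Pycard, on chromosome 7 from 127989708 to 127993867 on the minus strand, encodes the adaptor ASC. Its normalized count was 686, 691 and 713 in control and 882, 431 and 757 in LPS libraries, and 727, 666 and 841 in oxLDL and 966, 452 and 774 in oxLDL+LPS libraries. The spread between libraries was wider with LPS, where replicate 2 was the lowest and replicate 1 the highest in both groups, and the ranges overlapped. The log2 fold changes were -0.08 (95% interval -0.64 to 0.49, adjusted p = 0.812 from limma) and -0.09 (95% interval -0.71 to 0.53, adjusted p = 0.809). Without LPS replicate 2 the former was 0.23. With the same-total scaling they were -0.56 (adjusted p = 0.0884) and -0.48 (adjusted p = 0.169). Gm45205, an annotated transcript on the other strand, shares 485 exon bases with Pycard, and whether counting used the strand is not stated.

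Both inflammatory caspases rose, Casp4 by more. Casp1, on chromosome 9 from 5298517 to 5307265 on the plus strand, encodes the protease of the canonical inflammasome. It was at 1174, 1119 and 1482 in control and 5634, 5416 and 7273 in LPS libraries, a 4.85-fold change on this scale with a 95% interval of 3.79 to 6.19 (log2 fold change 2.28, SE 0.15, adjusted p = 1.27e-05 from limma). In loaded PMφs Casp1 was at 1175, 1218 and 1617 without and 5596, 5534 and 6642 with LPS (log2 fold change 2.16, SE 0.14, adjusted p = 2.41e-05).

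Casp4 starts 1562 bases after the end of Casp1 and runs to 5336783 on the same strand. Its normalized count was 163, 166 and 193 in control and 3721, 4062 and 4593 in LPS libraries, a 23.6-fold change with a 95% interval of 19.5 to 28.4 (log2 fold change 4.56, SE 0.12, adjusted p = 1.85e-07 from limma). With oxLDL it was at 181, 176 and 209 without and 3197, 3720 and 3653 with LPS (4.22, SE 0.11, adjusted p = 3.46e-07). The 3 replicate numbers gave nearly the same rise, 4.50, 4.60 and 4.57 on the log2 scale in unloaded PMφs, and of the 4 members that rose by at least 2 on that scale Casp4 had the smallest SE. The groups stood far apart in both settings.

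Txnip, on chromosome 3 from 96557957 to 96561883 on the plus strand, encodes a thioredoxin-binding arrestin that limits glucose uptake and has been described as a partner of NLRP3. Before LPS it was at 4637, 5263 and 4748 in control and 4592, 5333 and 5037 in oxLDL libraries. With LPS it was at 3760, 3450 and 3477, and with oxLDL and LPS at 4007, 3622 and 3443, below all libraries without LPS. The log2 fold changes were -0.45 (SE 0.09, adjusted p = 0.00385 from limma) and -0.43 (SE 0.10, adjusted p = 0.00793). The same-total scaling gave -0.94 and -0.82. The antisense gene Gm15441 shares 606 exon bases with Txnip and was at 1 to 7 in all libraries.

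**Figure D2:**
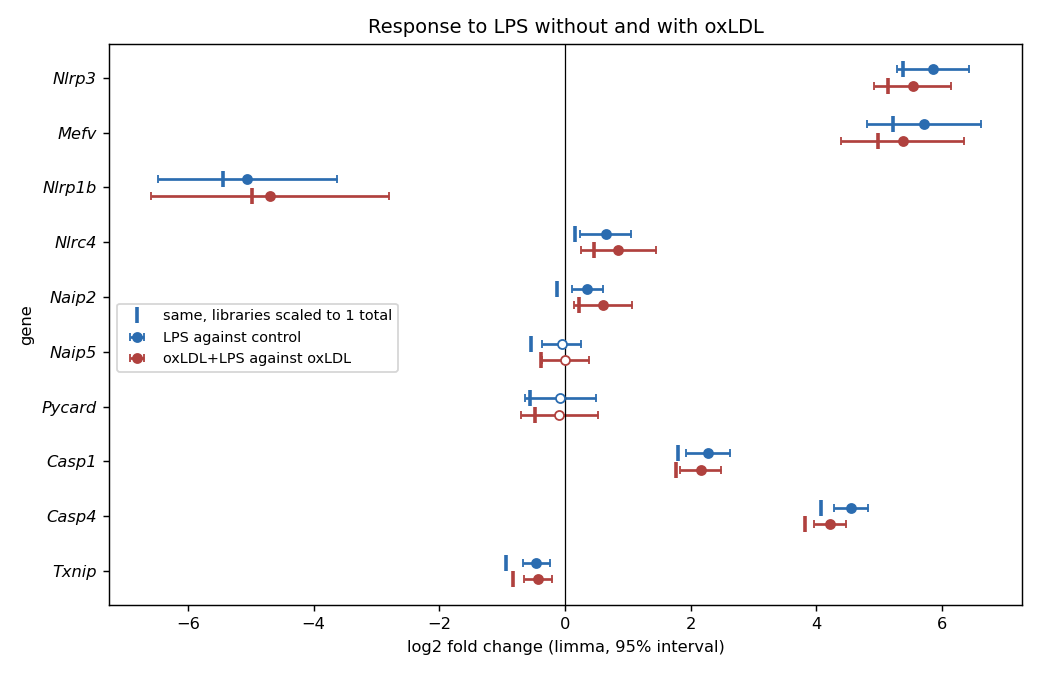
Log2 fold change with LPS of the 10 genes (horizontal axis), in PMφs without oxLDL (blue) and with it (red), with 95% intervals from limma; filled points were called at an adjusted p under 0.1, and vertical ticks give the value after scaling libraries to the same total. The pairs of intervals overlap for every gene, and the ticks of Naip2 and Naip5 fall below 0 in unloaded PMφs.

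In loaded PMφs the members called with LPS were the same 8, 6 higher and 2 lower, against 54.5% of 12900 genes, and the members' median log2 fold change was 0.73. Nlrp1b is among the 8 but passed the filter only through the oxLDL libraries, where it was high. The same-total scaling called 7, 4 higher and 3 lower, with an all-gene split of 2031 higher and 6660 lower against 3633 and 3397 before. In LPS against control, the groups did not overlap for 8 members, all but Naip5 and Pycard, against 63.2% of genes. In oxLDL+LPS against oxLDL this held for 7 members, Naip2 being the further exception, against 57.6% of genes. Both counts include Nlrp1b, which could enter only if high without LPS.

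To compare members with each other, levels were divided by the length of the longest principal GENCODE transcript. In control PMφs the order of normalized counts per kilobase was Txnip at 1747 ± 119.5 (SD, n = 3), Casp1 at 841 ± 131, Naip2 at 467 ± 29.5, Naip5 at 186 ± 28.2, Pycard at 183 ± 3.78, Casp4 at 121 ± 11.5, Nlrp3 at 40.1 ± 9.92, Nlrc4 at 39.3 ± 5.04, Mefv at 28.3 ± 12.8 and Nlrp1b at 21.9 ± 4.65. The ranges of neighbours overlapped between Naip5 and Pycard and from Nlrp3 down to Nlrp1b. The order in oxLDL libraries was the same but for Pycard, at 196 ± 23.4, above Naip5, at 190.2 ± 28.2, and Nlrc4, at 48.1 ± 7.16, above Nlrp3, at 39.4 ± 7.50, both pairs with overlapping ranges. With LPS, Casp1 led at 4080 ± 678 per kilobase, followed by Casp4 at 2875 ± 306, Nlrp3 at 2340 ± 589, Mefv at 1466 ± 566 and Txnip at 1275 ± 61.4. From Casp4 to Txnip each neighbour overlapped the next. Naip2 at 599 ± 65.0, Pycard at 182 ± 61.3, Naip5 at 178 ± 12.6, Nlrc4 at 62.0 ± 11.3 and Nlrp1b at 0.564 ± 0.504 came after them. The order in oxLDL+LPS libraries differed only in that Txnip, at 1320 ± 103 per kilobase, stood above Mefv, at 1070 ± 359, with overlapping ranges. Over the length of all its exons Casp4 came to 46.9 per kilobase in control and 1112 in LPS libraries, so its place depends on the transcript that is expressed. Annotated Pycard is 3800 bases long in a single transcript, and a shorter expressed one would raise its value.

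Over the 12 libraries, the gene whose profile on the log2 scale lay nearest to that of Casp4, by mean absolute difference of centred values among 13482 genes, was Ifi204 (0.0617). Pnpt1 lay nearest to Casp1 (0.0641), Ifi203 to Nlrp3 (0.179) and Cpped1 to Txnip (0.0533). The nearest to Mefv was Ccl9 (0.341) and to Nlrp1b Cxcr4 (0.618), the largest such distances among the members. Nlrp1b was at 0, 3 and 4 in LPS and 10, 0 and 2 in oxLDL+LPS libraries, and scatter near the floor enters its distance. The members with small changes included Nlrc4, Naip5 and Pycard, with Fbxl5 (0.108), Oxsm (0.0810) and Sh3bp1 (0.0959) as their nearest genes.

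oxLDL alone gave no called change in these genes. Against control, 0 of 10 members and 0% of 12751 genes passed an adjusted p of 0.1 from limma, with 0 members and 381 genes at an unadjusted p under 0.05. With the replicate number as a block, 4.71% of genes were called and again 0 of 10 members. The intervals below are from the fit without the block and bound the differences. Those with the block were narrower, as for Nlrp3 at -0.26 to 0.24. The log2 fold change was -0.01 for Nlrp3 (95% interval -0.54 to 0.51), 0.08 for Casp1 (-0.27 to 0.44), 0.12 for Casp4 (-0.17 to 0.41) and 0.03 for Txnip (-0.16 to 0.22). The values of Mefv varied most between libraries, and its interval ran from -1.22 to 1.02 around -0.10. Nlrc4 had the largest difference in the set, 0.29 (SE 0.15, adjusted p = 1.00, and 0.124 with the block), and was higher with oxLDL in each replicate number, by 0.19, 0.31 and 0.37. Its 95% interval with the block was 0.095 to 0.48. Groups did not overlap for 0 members, against 7.7% of genes.

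In LPS-treated PMφs, oxLDL went with lower Nlrp3 and Mefv and higher Nlrc4 RNA when libraries were compared within replicate numbers. No such call was left in blocked fits of 2 pairs without number 1 or number 3, and none was made without the replicate block. In oxLDL+LPS against LPS, 0 of 9 members tested were called, as were 0% of 12786 genes (890 genes and 0 members had an unadjusted p under 0.05), and Nlrp1b was below the filter. With the replicate block, 3 of 9 members were called in limma, against 13.2% of genes, 4.42% higher and 8.74% lower. Nlrp3 was lower by -0.47, -0.29 and -0.24 on the log2 scale in replicate numbers 1, 2 and 3, with a fitted value of -0.33 (95% interval with the block -0.53 to -0.14, adjusted p = 0.0486 with it and 0.832 without). Mefv was lower by -0.51, -0.29 and -0.49 (-0.43, interval -0.61 to -0.26, adjusted p = 0.0144 with the block and 0.809 without). Nlrc4 was higher in all 3 numbers, by 0.59, 0.22 and 0.67 (0.49, interval 0.25 to 0.74, adjusted p = 0.0312 with the block and 0.749 without). Nlrp3 and Mefv also had large rises in LPS against control, a comparison that shares the LPS libraries with this one, and Nlrc4 a small one.

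These calls depended on which numbers were in the blocked fit, and a call lost from 2 pairs can also reflect the smaller fit. With number 1 or number 3 left out of the blocked fit, which leaves 2 pairs and 1 residual degree of freedom, 0 of 9 members were called, and with number 2 left out 5 were, Naip2 and Casp4 in addition. The direction of Nlrp3, Mefv and Nlrc4 was kept in each case, but the adjusted p of Nlrp3 from limma became 0.412 without number 1 and 0.370 without number 3, that of Mefv 0.197 and 0.365 and that of Nlrc4 0.246 and 0.381. Over all genes 71 were called without number 1, 2945 without number 2 and 0 without number 3. Without number 2 the smallest adjusted p from limma was 2.49e-195. From 2 pairs, such p-values and the counts that follow from them are not taken at face value. In the fit without the block, single libraries moved the size. The difference of Nlrp3 was smallest without oxLDL+LPS replicate 1 (-0.04) and largest without LPS replicate 1 (-0.56), that of Mefv smallest without LPS replicate 3 (-0.16) and largest without LPS replicate 2 (-0.74), and that of Nlrc4 smallest without oxLDL+LPS replicate 1 (0.33) and largest without oxLDL+LPS replicate 2 (0.78).

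Casp4 was lower in each number, by -0.22, -0.13 and -0.33, and its groups did not overlap, the lowest LPS library being at 3721 and the highest oxLDL+LPS library at 3720. It was not called (-0.23, SE 0.12, adjusted p = 0.742, and 0.106 with the block). It was the 1 member with groups apart, against 12.6% of genes. The other caspase, Casp1, differed by -0.0098, 0.03 and -0.13 in the 3 numbers (-0.04, 95% interval -0.38 to 0.31 without the block and -0.21 to 0.14 with it). Naip2 was at 0.30 (adjusted p = 0.782, and 0.140 with the block), Txnip at 0.05, Naip5 at 0.09 and Pycard at 0.08, with adjusted p of 0.924 or above in the fit without the block for the last 3.

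**Figure D3:**
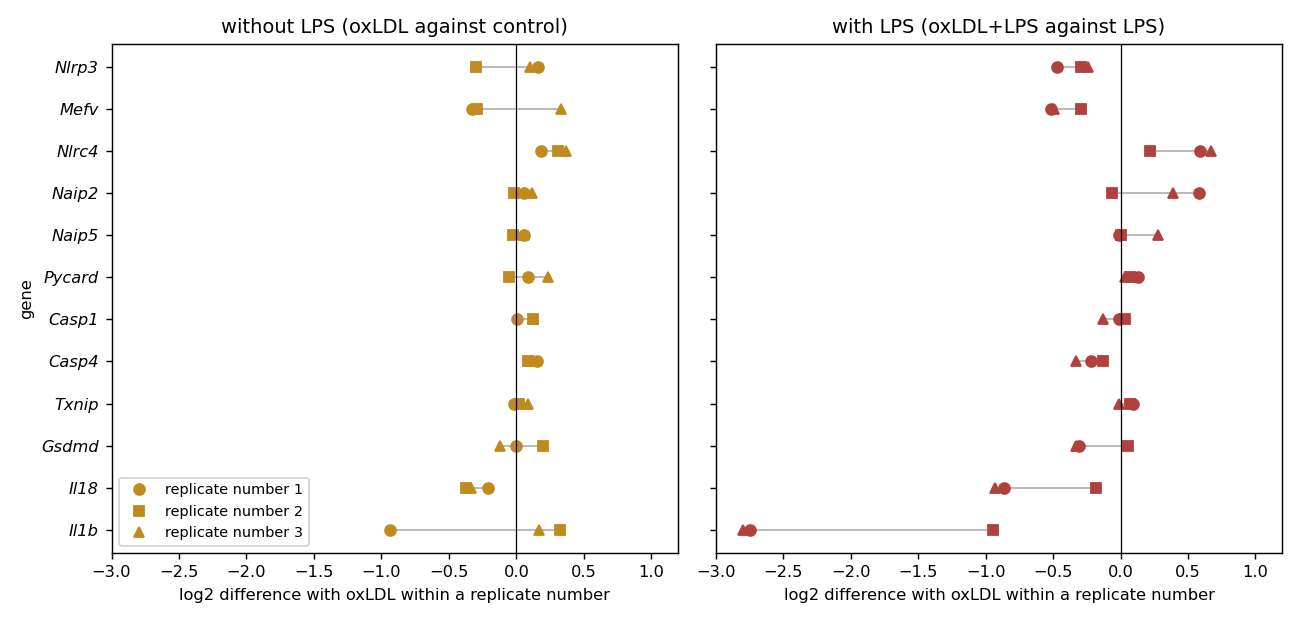
Difference with oxLDL on the log2 scale within each replicate number (horizontal axis), without LPS on the left and with LPS on the right, for 9 of the members and for Gsdmd, Il18 and Il1b; Nlrp1b is left out because its LPS libraries were near 0. With LPS, all 3 numbers lie below 0 for Nlrp3, Mefv, Casp4, Il18 and Il1b and above 0 for Nlrc4 and Pycard.

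Whether oxLDL changed the LPS response itself was tested as the interaction over all 12 libraries, and 0 of 10 members and 0% of 13482 genes were called from limma, with and without the block (418 genes and 1 member had an unadjusted p under 0.05 without it). That member was Casp4, with an interaction of -0.34 (SE 0.16, adjusted p = 1.00, and 0.657 with the block). Without the block, the interaction of Nlrp3 was -0.32 (95% interval -1.20 to 0.55) and that of Mefv -0.34 (-1.75 to 1.08). That of Nlrc4 was 0.21 (-0.51 to 0.92) and that of Casp1 -0.12 (-0.61 to 0.37). With the block the intervals were narrower, at -0.65 to -0.00017 for Nlrp3 and -0.94 to 0.27 for Mefv. They were -0.20 to 0.62 for Nlrc4 and -0.31 to 0.07 for Casp1. In the blocked fit 967 genes had an unadjusted p under 0.05, among them the members Casp4 and Nlrp3. Neither was called after the correction over all genes. The LPS comparisons with and without oxLDL share no library, and the interaction rests on 3 libraries in each group.

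The wider pathway was followed through 56 genes in 5 lists, of which 52 passed the filter. With LPS, 29 of 52 rose and 10 fell in unloaded PMφs and 28 rose and 8 fell in loaded PMφs, against 31.4% and 30.3% of all genes in the former and 28.2% and 26.3% in the latter. With the same-total scaling these became 26 higher and 20 lower and 24 higher and 16 lower. With the replicate block they were 32 higher and 11 lower and 32 higher and 10 lower, and the further calls lay in the lists of execution genes and of licensing genes. Of the 7 cytokine substrates and their inhibitors, 6 were tested, and these rose in both settings. A gene as low without LPS as Il1b in control library 3 could be tested only if it reached 10 with LPS. The count of 6 is therefore partly set by the filter. Il1b, the precursor that caspase-1 matures, was at 20, 11 and 7 in control and 51068, 85645 and 152939 in LPS libraries (log2 fold change 12.76, SE 0.45, adjusted p = 5.68e-07 from limma). Il18, the other substrate, went from 72, 87 and 96 to 909, 1160 and 1550 (3.79, SE 0.21, adjusted p = 4.82e-06). Il1a, an alarmin of the same family, had a log2 fold change of 7.92.

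Genes for the delivery of LPS to caspase-11 followed, with 8 of 10 higher and 2 lower in unloaded PMφs. The guanylate-binding proteins, which coat bacteria and expose their LPS, had the largest values, with log2 fold changes of 10.81 for Gbp5, 7.49 for Gbp2 and 7.37 for Gbp7. Gbp5 went from 29, 37 and 32 in control to 48974, 54021 and 81540 in LPS libraries. Hmgb1, which can carry LPS into cells, fell by 0.43 on the log2 scale, and Tlr4, the surface receptor for LPS, by 0.34 (adjusted p = 0.0800 from limma), and the same-total scaling gave -0.91 and -0.83. In loaded PMφs Tlr4 was not called (-0.14, adjusted p = 0.282), but was with the same-total scaling (-0.53, adjusted p = 0.00233).

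Of the execution and cell death genes, 6 of 11 rose and 1 fell in unloaded PMφs, and 6 rose and 0 fell in loaded PMφs, against 7 and 1 in both with the replicate block. Gsdmd, the pore-forming substrate of both caspases, was at 899, 924 and 1073 in control and 3519, 3833 and 4305 in LPS libraries (log2 fold change 2.01, SE 0.11, adjusted p = 5.13e-06 from limma). Zbp1 and Mlkl, a nucleic acid sensor and the executor of necroptosis, had log2 fold changes of 6.82 and 4.46. Dfna5, the gene of gasdermin E, fell by 0.54 (-1.02 with the same-total scaling). In loaded PMφs Dfna5 was not called (-0.34, adjusted p = 0.387 from limma), but was with the block (adjusted p = 0.0548) and with the same-total scaling (-0.73, adjusted p = 0.0677).

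The other sensors split evenly, 4 higher and 4 lower of 10 tested in both settings. Nlrc5, an activator of MHC class I genes, and the peptidoglycan sensors Nod2 and Nod1 had log2 fold changes of 4.68, 4.29 and 3.33 in unloaded PMφs, and Nlrc3, Naip1 and Nlrx1 of -3.19, -2.62 and -1.54. Among genes for licensing, ion flux and brakes, 5 of 15 rose and 3 fell in unloaded PMφs, all by less than 2 on the log2 scale, and 4 rose and 3 fell in loaded PMφs, against 7 and 4 in both with the replicate block. Txn1, the thioredoxin that binds TXNIP, rose by 0.90, Mark4 by 0.74 and Brcc3, a deubiquitinase of NLRP3, by 0.51, while Pstpip1, a partner of pyrin, fell by 1.61, the potassium channel gene Kcnk6 by 1.29 and Fbxl2 by 1.01. With the same-total scaling Txn1 was at 0.42 (adjusted p = 0.0355 from limma), Mark4 at 0.25 (adjusted p = 0.0692) and Brcc3 at 0.03 (adjusted p = 0.834), and 2 of these 15 rose and 8 fell in unloaded PMφs, against 0 and 7 in loaded PMφs.

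**Figure D4:**
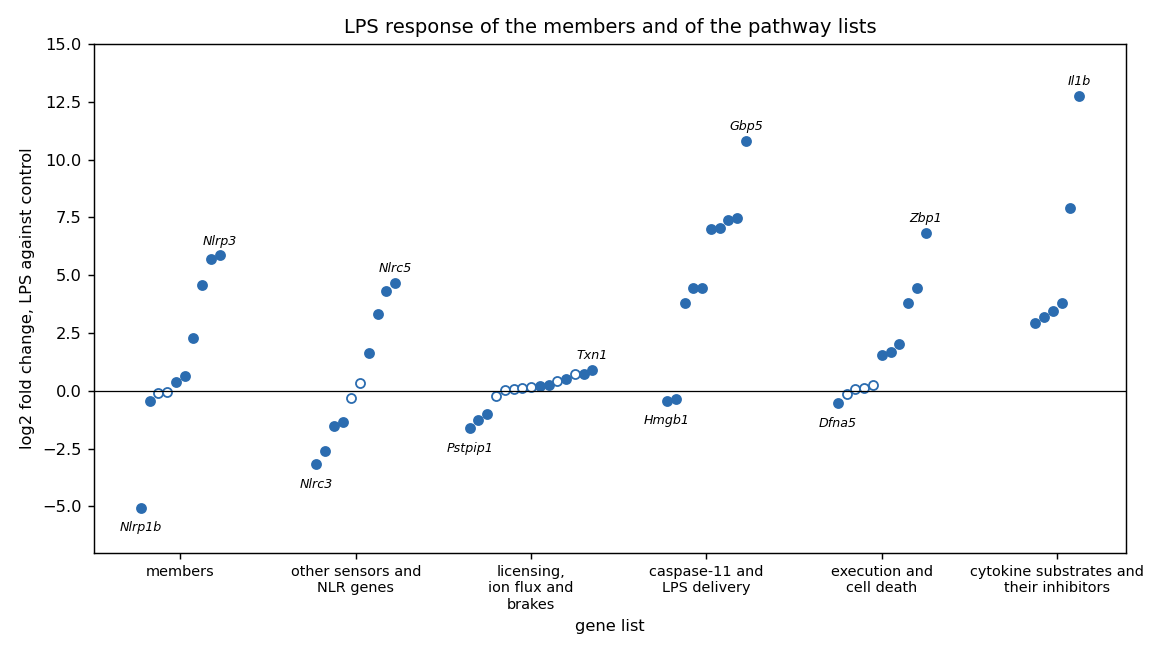
Log2 fold change in LPS against control PMφs (vertical axis) of the 10 genes (members) and of the tested genes of each pathway list (horizontal axis), 1 point per gene, filled where called at an adjusted p under 0.1, with the outermost genes named. The tested genes of the cytokine list lie wholly above 0, up to Il1b at 12.76, which the filter partly sets. The licensing list lies within 2 of 0.

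With oxLDL, 0 of 52 pathway genes were called without LPS and 0 with it, and the replicate block called 7 and 19. Without number 1 or number 3 in the blocked fit, 0 were called with LPS, and without number 2, 29, each from 2 pairs. The 19 comprised 4 higher and 15 lower in oxLDL+LPS than in LPS PMφs, against 4.42% and 8.74% of genes. Il1b was at 7630, 44508 and 21943 in oxLDL+LPS libraries, lower by -2.74, -0.94 and -2.80 on the log2 scale in replicate numbers 1, 2 and 3 (-2.16, adjusted p = 0.698 from limma, and 0.00787 with the block). Il18 was at 499, 1024 and 813 (-0.66, adjusted p = 0.710, and 0.0222 with the block). Gsdmd, at 2837, 3990 and 3422, was not called in either fit (-0.19, adjusted p = 0.806, and 0.234 with the block). The blocked calls thus held both cytokine genes but neither Casp1 nor Gsdmd, a contrast between genes that was not itself tested.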

How the data were processed

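The authors trimmed reads with Trimmomatic 0.32, aligned them to GRCm38 (mm10) with STAR 2.5.1b and summed the exonic reads of each GENCODE gene with featureCounts, per the labels and the study's methods. The libraries came from a directional kit, but whether counting used the strand is not given in the sources used here. The deposited signal is a normalized count, the authors' gene count after division by a library factor and rounding to integers. The reads were not recovered from it, so a test for raw counts was not run. The factors were read from the spacing of the values. Genes shown as dates (25 symbols, at most 0.165% of a library) were not assigned.

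Groups were compared with limma 3.58.1 in R 4.3.3 (lmFit, eBayes with a trend) on log2 of the value plus 1, over genes at 10 or more in at least 3 of a comparison's 6 libraries. The interaction used all 12 libraries. Calls were made at a Benjamini-Hochberg adjusted p under 0.1 over all genes tested. An exact permutation test of 3 against 3 cannot go below p = 0.1, so none is given. Replicates are separate pools of cells by the methods, and p-values measure only the spread between these libraries. Deviations from group means of same-numbered libraries had correlations of 0.305 to 0.733 over 11186 genes in every pair of groups. The numbers therefore pair the libraries, as the division of each pool among groups implies, and blocked values appear where the replicate number as a block changes the call of a gene named or the count of a list with LPS. Leaving each number out of the blocked fit of oxLDL+LPS against LPS was added after its calls were seen.

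The members, the 5 pathway lists and the marker lists were chosen with earlier results of these data known. The text names all members, always Il1b, Il18 and Gsdmd, for each list up to 3 called genes with the largest change in each direction, and the nearest gene of each member. Genes that this rule names but the text omits are not reported here. Nlrp1a, Gm15441 and Gm45205 were named after their values or positions were seen, as sources of shared reads. Alternatives were the block, all 12 libraries in each fit, a pseudocount of 10, other filters, rescaled libraries, no variance trend and each library left out. Positions and transcript lengths come from GENCODE by symbol.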

Additional observations from a re-analysis of the deposited data

Results flagged for a closer look

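Casp4 is listed here because oxLDL went with opposite differences without and with LPS. The members, Il1b, Il18 and Gsdmd were checked for this and for opposite LPS differences without and with oxLDL, and only Casp4 was flagged. The share of all genes with such a pattern was not counted. In oxLDL against control libraries the normalized count of Casp4 was higher in all 3 replicate numbers, by 0.15, 0.08 and 0.11 on the log2 scale. In oxLDL+LPS against LPS libraries it was lower in all 3, by -0.22, -0.13 and -0.33. The test of the difference itself, the interaction from limma over 12 libraries, gave -0.34 (SE 0.16, 95% interval -0.68 to -0.00086, adjusted p = 1.00). With the replicate block the interval was -0.57 to -0.12 and the adjusted p 0.657, so Casp4 did not pass the correction over 13482 genes in either fit.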

How the results depend on the processing

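The LPS calls of Nlrp3, Mefv, Casp1, Casp4 and Txnip were kept, with their direction, under all alternatives run. Scaling libraries to the same total reversed Naip2 in LPS against control (-0.13) and Naip5 in oxLDL+LPS against oxLDL (-0.38). With the replicate block, 601 genes were called in oxLDL against control and 1682 in oxLDL+LPS against LPS, with 3 members in the latter, against 0 without it. In the latter, 29 genes were called with all 12 libraries in the fit. With all 3 numbers the block changed no other member's call. With 1 library left out, so that its group held 2, 7 to 8 members were called in both LPS comparisons and 0 in the others. Over all genes the counts were 6881 to 7690 in LPS against control, 5838 to 6699 in oxLDL+LPS against oxLDL, 0 in oxLDL against control, 0 to 91 in oxLDL+LPS against LPS and 0 to 6 for the interaction, the 91 and the 6 without oxLDL+LPS replicate 2. The blocked fit of oxLDL+LPS against LPS without number 1 gave 71 genes and 0 members. Without number 2 it gave 2945 and 5, and without number 3, 0 and 0. Each of these fits held 2 pairs, so their counts are not taken at face value. In LPS against control, Nlrp1b was not tested when a control library was left out, and in no comparison with LPS libraries when every library had to reach 10, since it then failed the filter by construction. Depth limits Nlrp1b, which had 0 to 10 normalized counts in LPS-treated libraries.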

Other observations

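Panx1, which encodes a channel for ATP release and was picked here after its values were seen, was the pathway gene with the largest upward difference with oxLDL. Its normalized count was 313, 213 and 239 in control, 442, 242 and 1014 in oxLDL, 325, 236 and 225 in LPS and 1260, 341 and 1238 in oxLDL+LPS libraries. It was higher with oxLDL in all 3 replicate numbers in both settings, by 0.50, 0.18 and 2.08 without LPS and by 1.95, 0.53 and 2.45 with it. In oxLDL+LPS against LPS its log2 fold change was 1.65 (adjusted p = 0.698 from limma, and 0.0127 with the replicate block over all 3 numbers), and in oxLDL against control 0.92 (adjusted p = 1.00, and 0.0967 with the block). The size of the difference varied between replicate numbers more than for any of the 9 members tested in oxLDL+LPS against LPS.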
